A study of Mus musculus with 20 samples.

Results

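Gata2, Myb, Myc, Mycn, Runx1, Spi1, Meis1, Erg, Lyl1 and Cbfa2t3 encode transcriptional regulators of immature blood progenitors, and their expression was followed in sorted red cell progenitors of mice with and without an Srsf2 mutation. The genes were taken by symbol, and all 10 were found among the 37748 gene entries of the deposited table. The filter on low values required 5 of the 20 libraries to reach a value of 1, and 8 of the 10 passed it, as did 10890 entries in all. Meis1 and Mycn did not, and Erg passed it only through 5 PBS libraries.

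CFU-E, bone marrow progenitors that are committed to the red cell lineage and form small erythroid colonies in culture, were profiled by RNA sequencing in 4 groups of 5 libraries. The groups were Mx1-Cre Srsf2 P95H/+ mice (called P95H below) given phenylhydrazine (PHZ), P95H mice given saline (PBS), Mx1-Cre mice given PHZ, and Mx1-Cre mice given PBS, which the library titles call WT. PHZ lyses red cells and so causes anaemia. It was injected under the skin on day 0 and again on day 1 (30 mg/kg each time), and cells were sorted on day 4. P95H/+ is a heterozygous missense mutation of the splicing factor SRSF2. Every mouse carried Mx1-Cre, a recombinase gene under an interferon-inducible promoter that is not specific to red cells, so the controls share it. How Cre was induced, age, sex and strain background are not given in the sources used here. Cells were sorted as live, lineage-negative and c-Kit-high, with CD105 and without Sca-1, CD41, CD16/32 and CD150. Every library is named with a separate animal number, and p-values measure the spread between these animals and libraries.

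As background, GATA2 occupies many of the sites that GATA1 later takes over when a progenitor commits to the red cell lineage, and GATA1 then represses Gata2. In a mouse blood progenitor cell line, GATA2, RUNX1, ERG and LYL1 bind many shared sites together with TAL1, LMO2 and FLI1. MYB keeps erythroid progenitors dividing and declines as they mature, MYC drives growth and ribosome production, and PU.1, the product of Spi1, opposes GATA1 and directs myeloid fates. ETO2, the product of Cbfa2t3, is a corepressor that joins the GATA1, TAL1 and LDB1 complex and restrains late erythroid genes.

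Values are TPM-like: they have the form of rounded TPM and a similar total in each library (924763 to 1085047). That they are per transcript length is inferred from this form. Levels set side by side between genes, Gata1 beside Gata2 among them, rest on that inference. Library totals did not overlap between treatments in P95H, at 924763 to 967303 with PHZ and 969270 to 1085047 with PBS. In Mx1-Cre they overlapped. The labels state a minimum depth per library, but the table holds no counts, and how many reads stand behind a value is unknown. All 10 CFU-E and erythroid markers were detected in every group, with Car1 the most abundant. Of 7 stem and early progenitor markers, 5 stayed under 1 in every library, as did 4 of 9 lymphoid, 6 of 8 mast cell and basophil, 5 of 7 macrophage and 3 of 7 megakaryocyte markers. The 18 granulocyte and monocyte markers were detected, although lineage-positive and CD16/32-positive cells were gated out. Their mean log2 level was 2.83 ± 0.505 in P95H PHZ, 4.52 ± 0.788 in P95H PBS, 2.79 ± 0.835 in Mx1-Cre PHZ and 3.66 ± 0.376 in Mx1-Cre PBS (SD, n = 5 each). Srsf2 averaged 586 ± 20.2 in P95H PHZ, 623 ± 49.3 in P95H PBS, 685 ± 35.6 in Mx1-Cre PHZ and 679 ± 31.9 in Mx1-Cre PBS. It was lower in P95H after PHZ (log2 fold change -0.22, limma adjusted p = 0.0188) and averaged over both treatments (-0.18, limma adjusted p = 0.0053). Under PBS it did not pass (-0.13, limma adjusted p = 0.288). A level does not show the mutation, so it does not check the genotype.

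Gata2, Myb and Cbfa2t3 carried the clearest differences, and the 250 bases before their annotated starts are printed here so that their letters can be read beside the values. They come from RefSeq on GRCm38.p6, read 5′ to 3′ along the gene, and capitals mark letters that match a searched motif.
Gata2, annotated gene start, chr6:88193641-88193890, plus strand: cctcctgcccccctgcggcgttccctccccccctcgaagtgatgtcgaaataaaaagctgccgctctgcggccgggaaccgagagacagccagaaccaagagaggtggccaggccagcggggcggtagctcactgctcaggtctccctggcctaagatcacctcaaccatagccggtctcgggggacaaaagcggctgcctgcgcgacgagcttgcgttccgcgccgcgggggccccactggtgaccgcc
Gata2, start within the gene, chr6:88198414-88198663, plus strand: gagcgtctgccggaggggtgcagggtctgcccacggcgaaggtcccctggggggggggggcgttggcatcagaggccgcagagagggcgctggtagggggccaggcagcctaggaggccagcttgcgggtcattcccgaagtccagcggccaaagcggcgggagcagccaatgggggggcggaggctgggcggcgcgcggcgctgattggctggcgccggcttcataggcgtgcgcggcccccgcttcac
Myb, chr10:21160985-21161234, minus strand: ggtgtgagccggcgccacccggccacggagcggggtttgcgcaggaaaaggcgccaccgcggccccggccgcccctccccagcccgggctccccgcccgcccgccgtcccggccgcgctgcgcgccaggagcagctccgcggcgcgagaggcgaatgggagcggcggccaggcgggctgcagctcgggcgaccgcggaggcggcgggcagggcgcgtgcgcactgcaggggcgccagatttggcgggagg
Cbfa2t3, annotated gene start, chr8:122699110-122699359, minus strand: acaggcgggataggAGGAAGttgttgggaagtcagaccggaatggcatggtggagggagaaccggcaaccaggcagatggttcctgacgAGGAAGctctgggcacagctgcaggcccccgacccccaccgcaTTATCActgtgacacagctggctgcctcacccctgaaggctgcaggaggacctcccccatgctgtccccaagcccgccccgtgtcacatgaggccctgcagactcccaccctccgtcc
Cbfa2t3, start within the gene, chr8:122678176-122678425, minus strand: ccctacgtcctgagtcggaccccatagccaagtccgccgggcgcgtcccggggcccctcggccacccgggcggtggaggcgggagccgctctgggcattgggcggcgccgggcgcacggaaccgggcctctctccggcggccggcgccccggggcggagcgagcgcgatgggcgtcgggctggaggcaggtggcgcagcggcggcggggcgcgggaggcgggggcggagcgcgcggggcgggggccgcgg
Both strands were searched for AGATAA or, likewise for GATA factors, the letters TGATAA. They were also searched for the MYC and MAX motif CACGTG, for the RUNX motif TGTGGT, and for AGGAAG, a core of sites for ETS factors such as PU.1 and ERG. Both Gata2 windows, the Myb window and the Cbfa2t3 window within the gene held none. The window before the annotated gene start of Cbfa2t3 held TGATAA on the opposite strand, 118 bases before the start, and AGGAAG at 161 and 236 bases before it. Of 32851 windows of this length, 16.6% held at least a single GATA motif and 29.5% held the ETS motif. The MYC motif was in 6.02% and the RUNX motif in 14.0%. The share of G and C was 67.2% and 74% in the Gata2 windows, 81.2% in Myb, and 64% and 83.2% in Cbfa2t3, where the median over all windows was 52.4%. In all, 8 of the 10 genes matched the table, with 13 windows. Matches also lay in an Erg window (a GATA and an ETS motif), a Runx1 window (a MYC and an ETS motif) and a Meis1 window (a RUNX motif). A match describes letters and shows no binding.

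The 10 genes spanned a wide range of levels. Over the 20 libraries, Myc averaged 173 and Myb 148, near Gata1, the master erythroid factor, at 221. Lyl1 averaged 65.7, Cbfa2t3 25.3, Runx1 15.9 and Gata2 11.6. Spi1 averaged 1.78, Erg 0.798 and Meis1 0.399. Mycn averaged 0.0195 and was listed at 0 in 15 of 20 libraries. Myc and Lyl1 varied little, with the highest library 1.78 and 1.50 times the lowest, while Gata2 varied 3.12-fold, Erg 7.07-fold and Spi1 8.29-fold.

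**Figure D1:**
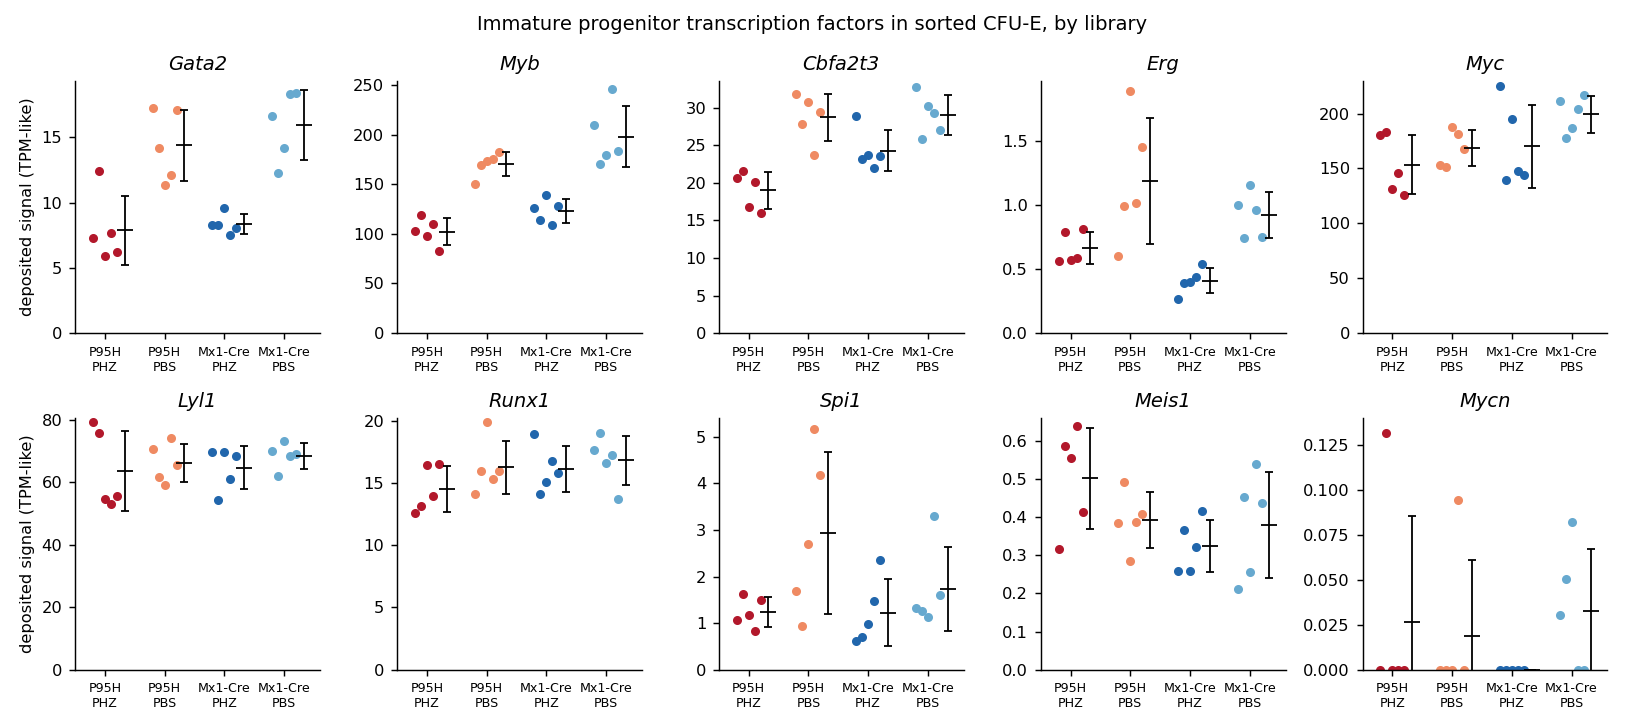
Deposited TPM-like signal (vertical axis, a separate scale per panel) of each of the 10 genes in every library. Points are libraries, and the bar beside each group is its mean ± SD (n = 5); Gata2 and Myb lie lower in the PHZ groups, while Lyl1 and Runx1 lie in the same range in all 4 groups.

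PHZ was compared with PBS to see these regulators when the marrow must replace lost red cells. Gata2, Myb, Cbfa2t3 and Erg fell in both genotypes and none of the 10 rose. In P95H mice 4 of the 8 tested genes were lower, where 17.7% of all genes tested were lower and 30.2% changed in either direction. In Mx1-Cre mice 4 of 8 were lower, where 14.9% of all genes tested were lower and 31.9% changed either way. Erg passed the filter on low values only through PBS libraries, the group where it was high, so that its fall was favoured by the filter, and without it 3 of 7 were lower in each genotype. The median log2 fold change over the 8 was -0.47 in P95H and -0.27 in Mx1-Cre, beside -0.02 and -0.00 over all genes tested. Without Erg it was -0.57 in P95H and -0.25 in Mx1-Cre. All 8 had a negative log2 fold change in both genotypes, and the sign turned under 2 alternatives: Lyl1 in P95H was at 0.03 with the authors' scaling factor divided out, and Spi1 was at 0.26 in P95H and 0.20 in Mx1-Cre with the granulocyte and monocyte marker level as a covariate. In these bulk samples, fewer cells of a type and less RNA per cell cannot be told apart.

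Megakaryocyte and lymphoid markers were also lower after PHZ. The 1 tested macrophage marker, Cd68, did not pass, at 0.01 in P95H and -0.06 in Mx1-Cre. The mean log2 level of all 7 macrophage markers was 0.289 in P95H PHZ and 0.429 in P95H PBS. In Mx1-Cre it was 0.260 with PHZ and 0.328 with PBS. That of the mast cell and basophil markers was 0.203 in P95H PHZ and 0.334 in P95H PBS. In Mx1-Cre it was 0.154 with PHZ and 0.238 with PBS. Both lists overlapped between PHZ and PBS in each genotype. No stem and early progenitor marker passed the filter. The mean log2 level of that list was 0.362 in P95H PHZ and 0.456 in P95H PBS. In Mx1-Cre it was 0.279 with PHZ and 0.316 with PBS, and PHZ and PBS overlapped in both genotypes. The mean log2 level of 7 megakaryocyte markers ran from 0.838 to 1.01 in P95H PHZ and 1.16 to 1.22 in P95H PBS, and from 0.700 to 0.894 in Mx1-Cre PHZ and 1.11 to 1.21 in Mx1-Cre PBS, with no overlap in either genotype. Their summed level ran from 8.80 to 14.0 in P95H PHZ and 14.7 to 17.7 in P95H PBS, and from 7.33 to 10.3 in Mx1-Cre PHZ and 13.3 to 16.9 in Mx1-Cre PBS. Of the 3 that were tested, Gp9, a platelet surface glycoprotein, fell by 0.57 in P95H (SE 0.149, adjusted p = 0.00633) and fell by 0.92 in Mx1-Cre (SE 0.149, adjusted p = 0.000101). Itga2b, the CD41 that the sort gated out, fell by 0.54 in Mx1-Cre (SE 0.116, adjusted p = 0.00128) and was at -0.28 in P95H (adjusted p = 0.0679), and Vwf did not pass. The summed level of 9 lymphoid markers ran from 0.141 to 0.981 in P95H PHZ and 3.16 to 12.9 in P95H PBS, and from 0.230 to 1.39 in Mx1-Cre PHZ and 1.40 to 4.03 in Mx1-Cre PBS. The 1 tested lymphoid marker, Cd79a of the B cell receptor, fell by 1.25 in P95H (SE 0.232, adjusted p = 0.000364) and fell by 0.71 in Mx1-Cre (SE 0.232, adjusted p = 0.0235). All 9 lymphoid markers stayed under 1 in every PHZ library. Cd79a therefore passed the filter on low values only through PBS libraries, so that its fall was favoured by the filter. The part of these cell types in the lower levels of Gata2, Myb, Cbfa2t3 and Erg was not tested.

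Gata2, on chromosome 6 (GRCm38 88193891 to 88207032, plus strand), was lower after PHZ in both genotypes. In P95H PHZ libraries it had 7.25, 12.4, 5.89, 7.65 and 6.21, against 17.2, 14.1, 11.4, 12.1 and 17.1 in P95H PBS libraries. In Mx1-Cre PHZ libraries it had 8.28, 8.30, 9.57, 7.49 and 8.04, against 16.7, 12.3, 14.2, 18.3 and 18.4 in Mx1-Cre PBS libraries. The Mx1-Cre groups did not overlap, and the P95H groups overlapped only through P95H PHZ replicate 2, at 12.4. Gata2 fell by 0.82 on the log2 scale in P95H (SE 0.153, adjusted p = 0.000389) and fell by 0.85 in Mx1-Cre (SE 0.153, adjusted p = 0.000296). Without P95H PHZ replicate 2 the fall in P95H was 0.98.

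Myb, on chromosome 10 (21124935 to 21160984, minus strand), fell as clearly. It had 102, 119, 97.5, 109 and 82.7 in P95H PHZ libraries, against 150.2, 169.5, 174, 175 and 183 in P95H PBS libraries. It had 126, 113, 139, 109 and 128 in Mx1-Cre PHZ libraries, against 209.5, 169.9, 179.7, 246 and 183 in Mx1-Cre PBS libraries. No PHZ library reached the lowest PBS library of its genotype. Myb fell by 0.74 in P95H (SE 0.0975, adjusted p = 8.8e-06) and fell by 0.67 in Mx1-Cre (SE 0.0975, adjusted p = 2.98e-05). Of 7 tested genes in the MYB family and its coactivators, Mybl2, the cell cycle relative of Myb, rose in P95H (0.22, SE 0.0788, adjusted p = 0.0426) and in Mx1-Cre (0.27, SE 0.0788, adjusted p = 0.0127). Men1, the menin scaffold that MYB contacts, rose in Mx1-Cre (0.32, SE 0.0686, adjusted p = 0.00149). None of the 7 fell. Of all genes tested, 12.6% rose and 17.7% fell in P95H, and 17% rose and 14.9% fell in Mx1-Cre. The P95H call of Mybl2 went without P95H PBS replicates 4 and 5, where the list had 0 calls.

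Cbfa2t3, on chromosome 8 (122625141 to 122699109, minus strand), fell in both genotypes. Cbfa2t3 had the larger log2 fold change in P95H, but did not pass the test of a difference between the genotypes (limma interaction, adjusted p = 0.798). It had 20.6, 21.6, 16.8, 20.1 and 16.0 in P95H PHZ libraries, against 31.9, 27.8, 30.8, 23.8 and 29.5 in P95H PBS libraries. It had 29.0, 23.3, 23.7, 22.0 and 23.6 in Mx1-Cre PHZ libraries, against 32.8, 25.9, 30.3, 29.3 and 27.1 in Mx1-Cre PBS libraries. The P95H groups did not overlap, while Mx1-Cre PHZ replicate 1, at 29.0, lay inside the Mx1-Cre PBS range. Cbfa2t3 fell by 0.57 in P95H (SE 0.0922, adjusted p = 7.94e-05) and fell by 0.25 in Mx1-Cre (SE 0.0922, adjusted p = 0.0417). The Mx1-Cre call was lost with no filter (adjusted p = 0.0818), with the authors' factor divided out (0.0949), and without any of 7 libraries: Mx1-Cre PBS replicate 1 (0.111), 3 (0.0822) or 4 (0.0787) and Mx1-Cre PHZ replicate 2 (0.0815), 3 (0.0798), 4 (0.104) or 5 (0.0679).

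Erg, an ETS factor of stem cells and megakaryocytes on chromosome 16 (95359169 to 95586593, minus strand), fell at a low level. It had 0.567, 0.793, 0.573, 0.590 and 0.818 in P95H PHZ libraries, against 0.603, 0.994, 1.89, 1.02 and 1.45 in P95H PBS libraries. It had 0.268, 0.395, 0.399, 0.440 and 0.542 in Mx1-Cre PHZ libraries, against 1.00, 0.745, 1.16, 0.961 and 0.750 in Mx1-Cre PBS libraries. The Mx1-Cre groups did not overlap, and the P95H groups did. Erg fell by 0.37 in P95H (SE 0.123, adjusted p = 0.0279) and fell by 0.45 in Mx1-Cre (SE 0.123, adjusted p = 0.00865), a scale that understates changes at such levels. Because Erg entered the tests through PBS libraries only, it was also fitted with no filter, where both calls held (adjusted p = 0.0369 in P95H and 0.0128 in Mx1-Cre). With the granulocyte and monocyte marker level as a covariate the calls were lost (adjusted p = 0.559 in P95H and 0.0612 in Mx1-Cre). The P95H call was also lost without P95H PBS replicates 4 and 5 together (0.113), without any of 5 single libraries, namely P95H PBS replicate 3 (0.0898) or 5 (0.0779) and P95H PHZ replicate 1 (0.0567), 3 (0.0618) or 4 (0.0525), under quantile normalization (0.0757), with the factor divided out (0.0532) and with the P95H groups fitted alone (0.0825).

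Counted by overlap, 2 of the 8 genes (Myb and Cbfa2t3) had every PHZ library below every PBS library in P95H, where 10% of all genes tested did so. In Mx1-Cre 3 of 8 did (Gata2, Myb and Erg), where 9.82% of all genes tested did. Without Erg, whose place among the 8 rests on its PBS libraries, the counts were 2 of 7 in P95H and 2 of 7 in Mx1-Cre.

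**Figure D2:**
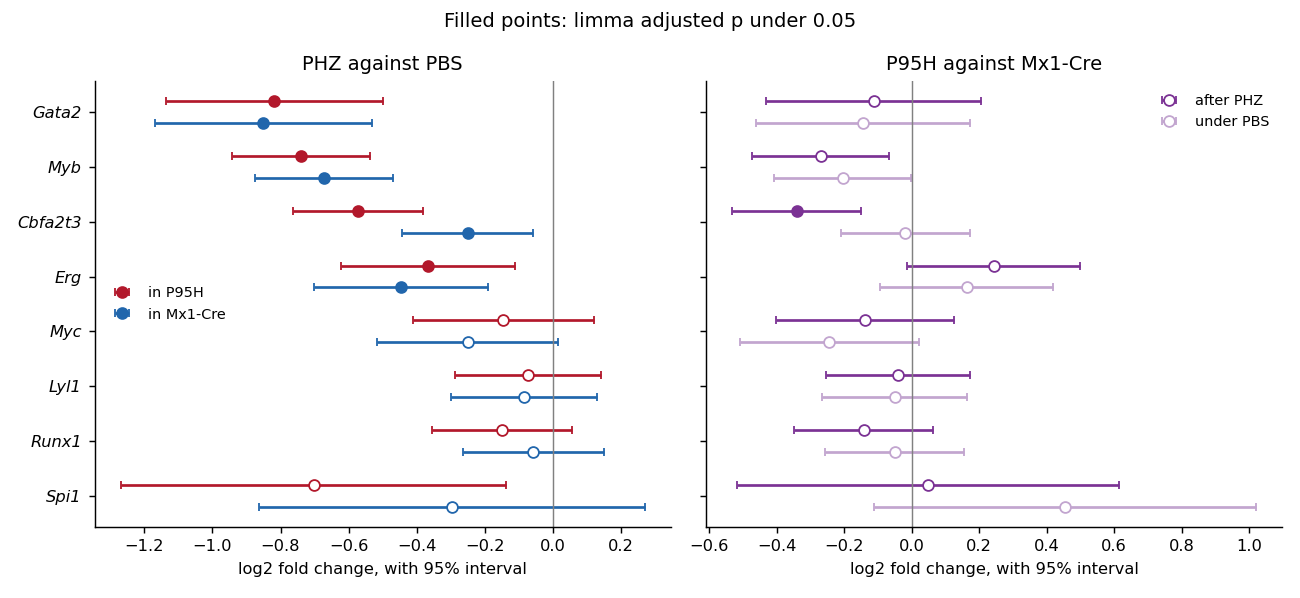
Log2 fold changes on the log2(value + 1) scale (horizontal axis) with 95% intervals for the 8 tested genes, PHZ against PBS at left and P95H against Mx1-Cre at right. Filled points have an adjusted p under 0.05: Gata2, Myb, Cbfa2t3 and Erg at left in both genotypes, and Cbfa2t3 after PHZ at right.

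Myc, on chromosome 15 (61985391 to 61990374, plus strand), did not pass the test. It had 181, 183, 131, 146 and 126 in P95H PHZ libraries, against 153, 152, 188, 182 and 168 in P95H PBS libraries. It had 225, 139, 195, 148 and 144 in Mx1-Cre PHZ libraries, against 211, 178, 187, 204 and 217 in Mx1-Cre PBS libraries. The groups overlapped in both genotypes, and PHZ libraries held both the highest and the lowest of the 20 values. The log2 fold change was -0.15 in P95H (95% interval -0.41 to 0.12, adjusted p = 0.414) and -0.25 in Mx1-Cre (-0.52 to 0.01, adjusted p = 0.141). Without Mx1-Cre PHZ replicate 1, the highest library, Myc was lower in Mx1-Cre (log2 fold change -0.36, adjusted p = 0.0245).

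Many genes known as MYC targets rose after PHZ. Of 41 such genes, 14 rose in P95H and 29 rose in Mx1-Cre, none fell in either, and their median log2 fold change was 0.15 in P95H and 0.32 in Mx1-Cre, beside 12.6% of all genes tested that rose in P95H and 17% in Mx1-Cre. The highest was Ccnd2, a D-type cyclin, at 1.35 (SE 0.164, adjusted p = 5.58e-06) in P95H and 1.48 (SE 0.164, adjusted p = 2.07e-06) in Mx1-Cre. Ccnd2 is also a known target of erythropoietin signalling. Tcof1, a nucleolar factor of ribosomal RNA transcription, rose by 0.27 in P95H (SE 0.0597) and 0.44 in Mx1-Cre (SE 0.0597). Utp20, of the small ribosomal subunit processome, rose by 0.43 in P95H (SE 0.0868) and 0.54 in Mx1-Cre (SE 0.0868). Cad, the first enzyme of pyrimidine synthesis, rose by 0.32 in P95H (SE 0.0739) and 0.44 in Mx1-Cre (SE 0.0739). The P95H count depended on the fit: it was 22 under quantile normalization, 26 with the authors' factor divided out, 9 with the P95H groups fitted alone, 4 with the granulocyte and monocyte marker covariate and 6 without P95H PBS replicates 4 and 5. The difference between the genotypes in this response was not tested for the list, and no gene passed the interaction test.

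**Figure D3:**
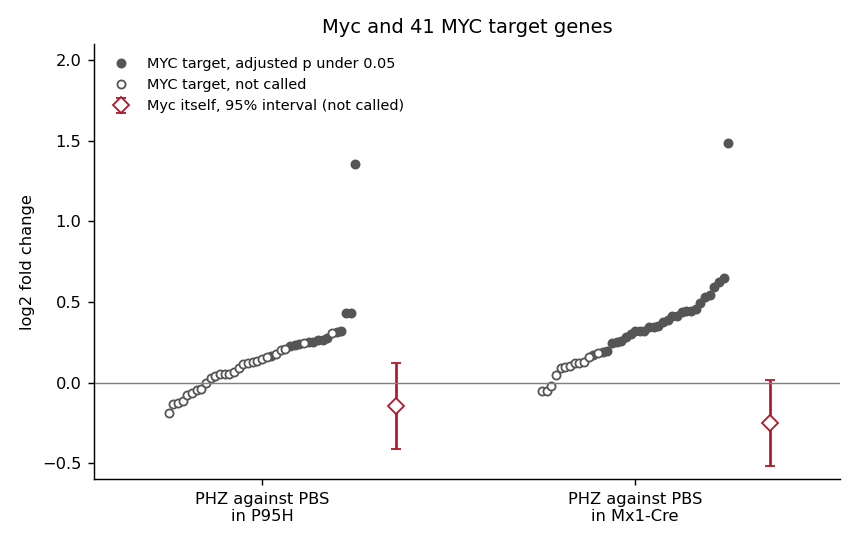
Log2 fold change, PHZ against PBS (vertical axis), of Myc (diamonds with 95% intervals) and of each of 41 MYC target genes (circles, sorted within each genotype). Filled circles have an adjusted p under 0.05; 14 target genes in P95H and 29 in Mx1-Cre are filled and lie above 0, while Myc lies below 0 in both genotypes without passing the test.

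Among 10 tested partners and antagonists of MYC, Mxd4, which competes with MYC for MAX and represses its targets, fell by 1.36 in P95H (SE 0.203, adjusted p = 4.87e-05) and fell by 1.39 in Mx1-Cre (SE 0.203, adjusted p = 4.54e-05). Max, the shared dimer partner, fell in P95H (-0.29, SE 0.0577, adjusted p = 0.000603). Mlx, a related partner, rose in Mx1-Cre (0.18, SE 0.0659, adjusted p = 0.0423), a call absent under 5 alternatives, TMM and quantile scaling among them. The other 8 genes in P95H and 8 in Mx1-Cre did not pass, where 30.2% of all genes tested changed in P95H and 31.9% in Mx1-Cre. Mycn, the MYC relative of embryonic and neural cells on chromosome 12 (12936093 to 12941914, minus strand), was at or near 0 throughout, with 0.132 in P95H PHZ replicate 2 its highest value.

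Spi1, on chromosome 2 (91082390 to 91115756, plus strand), had the widest range of the 9 genes that were above 0 in every library, by highest over lowest value. It had 1.06, 1.62, 1.17, 0.836 and 1.50 in P95H PHZ libraries, against 1.69, 0.935, 2.70, 5.18 and 4.18 in P95H PBS libraries. It had 0.624, 0.704, 0.978, 1.47 and 2.36 in Mx1-Cre PHZ libraries, against 1.33, 1.27, 1.14, 3.30 and 1.61 in Mx1-Cre PBS libraries. The highest values were those of P95H PBS replicates 4 and 5 and of Mx1-Cre PBS replicate 4, and the groups overlapped in both genotypes. The log2 fold change was -0.70 in P95H (SE 0.271, adjusted p = 0.0557) and -0.30 in Mx1-Cre (SE 0.271, adjusted p = 0.436). The P95H difference passed the threshold with a pseudocount of 5 (adjusted p = 0.0484), with the replicate number as a block (0.0207), and without Mx1-Cre PBS replicate 4 (0.038), Mx1-Cre PHZ replicate 5 (0.0429), P95H PBS replicate 1 (0.0407) or P95H PBS replicate 2 (0.00799).

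Spi1 lay high where granulocyte and monocyte markers lay high. Of the 5 libraries with the highest Spi1, 4 were among the 5 with the highest marker level, and the Pearson correlation of the log2 values over all 20 libraries was 0.86, given as a description of libraries that share groups and scaling. The same count was 3 of 5 for Erg, 2 of 5 for Gata2 and 2 of 5 for Myb. All 17 tested markers of this list were lower after PHZ in P95H, where 17.7% of all genes tested were lower. In Mx1-Cre 1 of 17, Ms4a3, was lower, where 14.9% of all genes tested were, so that the Mx1-Cre count is below that share. The median log2 fold change of the 17 was nevertheless below 0 in both genotypes, at -1.85 in P95H and -0.91 in Mx1-Cre. Over all genes tested it was -0.02 and -0.00. The interaction test called 0 of the 17, so a difference between the genotypes was not shown. The summed level of this list ran from 162 to 606 in P95H PHZ, 575 to 2523 in P95H PBS, 154 to 1096 in Mx1-Cre PHZ and 463 to 972 in Mx1-Cre PBS, with S100a9, a calcium-binding protein of neutrophils, the most abundant. With the marker level as a covariate, the Spi1 difference was 0.26 in P95H (SE 0.237, adjusted p = 0.565) and 0.20 in Mx1-Cre (SE 0.187, adjusted p = 0.489), of the opposite sign. In the same fit Gata2, Myb and Cbfa2t3 remained lower after PHZ in both genotypes. Marker levels of PHZ and PBS libraries overlapped little, so this fit cannot separate marker level from treatment.

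**Figure D4:**
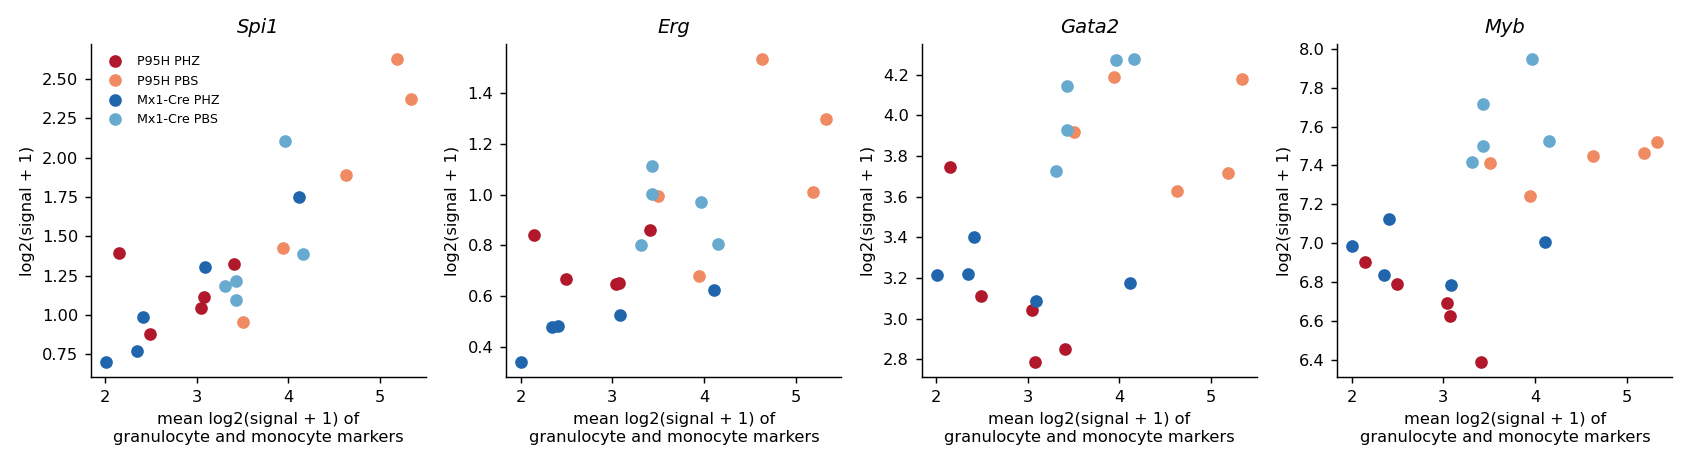
Log2(value + 1) of Spi1, Erg, Gata2 and Myb (vertical axis) against the mean log2 level of 18 granulocyte and monocyte markers (horizontal axis), one point per library, coloured by group. Spi1 lies high in the libraries with the highest marker level. PBS libraries run from 3.31 to 5.33 in marker level. Among PHZ libraries only P95H PHZ replicate 5 (3.41) and Mx1-Cre PHZ replicate 5 (4.11) lie in that range. Gata2 and Myb can therefore hardly be compared between treatments at like marker levels. Myb is lower in every PHZ library than in any PBS library, and Gata2 is too except in P95H PHZ replicate 2, at 12.4.

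Most known PU.1 targets fell after PHZ in P95H, where the granulocyte and monocyte markers fell too. Of 13 tested targets, 11 fell and 1 rose in P95H, where 17.7% of all genes tested were lower. In Mx1-Cre 2 fell and 1 rose, where 14.9% of all genes tested were lower, so that the Mx1-Cre count is near that share. The median log2 fold change of the 13 was -0.74 in P95H and -0.31 in Mx1-Cre. The difference between the genotypes was not tested for the list. Csf2ra, a receptor subunit for GM-CSF, fell by 0.58 in P95H (SE 0.101, adjusted p = 0.000185) and fell by 0.36 in Mx1-Cre (SE 0.101, adjusted p = 0.00906). Ptprc, the pan-leukocyte phosphatase CD45, fell by 0.37 in P95H (SE 0.125, adjusted p = 0.0274) and fell by 0.56 in Mx1-Cre (SE 0.125, adjusted p = 0.0019). Btk, a kinase of B and myeloid cells, rose by 0.34 in P95H (SE 0.0641, adjusted p = 0.000435) and by 0.41 in Mx1-Cre (SE 0.0641, adjusted p = 6.39e-05). With the marker covariate 0 of the 13 fell in P95H, and 3 fell without P95H PBS replicates 4 and 5, the libraries with the highest marker level. Csf3r belongs to both the target and the marker list.

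Lyl1, a TAL1-related factor on chromosome 8 (84701457 to 84704715, plus strand), and Runx1, on chromosome 16 (92601466 to 92826149, minus strand), did not pass in any comparison. Lyl1 ran from 52.9 to 79.2 (median 55.4) in P95H PHZ, 59.1 to 74.1 (65.5) in P95H PBS, 54.2 to 69.7 (68.5) in Mx1-Cre PHZ and 61.8 to 73.1 (68.9) in Mx1-Cre PBS. Runx1 ran from 12.6 to 16.5 (median 14.0) in P95H PHZ, 14.1 to 19.9 (15.9) in P95H PBS, 14.1 to 18.9 (15.8) in Mx1-Cre PHZ and 13.7 to 19.0 (17.3) in Mx1-Cre PBS. All 4 groups overlapped for both genes. For PHZ against PBS the 95% intervals of the log2 fold change were -0.29 to 0.14 in P95H and -0.30 to 0.13 in Mx1-Cre for Lyl1, and -0.36 to 0.06 in P95H and -0.26 to 0.15 in Mx1-Cre for Runx1.

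Meis1, a homeodomain partner of HOX proteins on chromosome 11 (18879817 to 19018985, minus strand), averaged 0.502 ± 0.133 in P95H PHZ, 0.392 ± 0.0736 in P95H PBS, 0.325 ± 0.0690 in Mx1-Cre PHZ and 0.380 ± 0.139 in Mx1-Cre PBS (SD, n = 5 each). No library reached 1. In a fit with no filter its log2 fold change after PHZ was 0.11 in P95H (adjusted p = 0.37) and -0.05 in Mx1-Cre (adjusted p = 0.736). Of 8 tested genes among its MEIS, PBX and HOXA partners, Pbx4 fell by 0.64 in P95H (SE 0.103) and fell by 0.63 in Mx1-Cre (SE 0.103), and Pbx2 fell by 0.24 in P95H (SE 0.076) and fell by 0.23 in Mx1-Cre (SE 0.076). Hoxa9 rose by 0.62 (SE 0.21, adjusted p = 0.0295) and Hoxa7 by 0.30 (SE 0.11, adjusted p = 0.0448) in P95H. Of all genes tested, 30.2% changed either way in P95H and 31.9% in Mx1-Cre. The list held no rise in P95H without P95H PBS replicates 4 and 5, with the marker covariate or with no filter.

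Of 11 tested genes of the LDB1 complex and the shared-site group, 3 fell and 1 rose in P95H, where 30.2% of all genes tested changed either way. In Mx1-Cre 3 fell and 3 rose, where 31.9% changed. Tal1, which pairs with LMO2 and LDB1, rose by 0.39 in P95H (SE 0.125, adjusted p = 0.0223) and by 0.58 in Mx1-Cre (SE 0.125, adjusted p = 0.00164). Lmo2, the bridging protein, fell by 0.33 in P95H (SE 0.0602, adjusted p = 0.000286) and fell by 0.35 in Mx1-Cre (SE 0.0602, adjusted p = 0.000152). Ldb1 fell by 0.27 in P95H (SE 0.0656, adjusted p = 0.00376) and fell by 0.28 in Mx1-Cre (SE 0.0656, adjusted p = 0.00292). Gata1 fell in P95H (-0.19, SE 0.0692, adjusted p = 0.0413). In Mx1-Cre, Ssbp4 rose (0.45, SE 0.0861). The P95H calls of this list came to 0 with the marker covariate, and without P95H PBS replicates 4 and 5 only 2 falls were left.

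Among 12 tested partners of RUNX1 and ETO2, Runx3, a RUNX relative, rose by 0.32 in P95H (SE 0.0825, adjusted p = 0.00497) and by 0.51 in Mx1-Cre (SE 0.0825, adjusted p = 0.000104). In P95H, Kdm1a, a histone demethylase, fell by 0.18 (SE 0.0467, adjusted p = 0.00563), and Gfi1b, its erythroid partner, fell by 0.43 (SE 0.116, adjusted p = 0.00837). The list had 1 rise and 2 falls in P95H, where 30.2% of all genes tested changed either way. In Mx1-Cre it had 2 rises, where 31.9% changed. The 3 P95H calls were lost with the marker covariate and without P95H PBS replicates 4 and 5.

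Of 12 other tested transcription factors of immature blood cells, 2 fell and 1 rose in P95H, where 30.2% of all genes tested changed either way. In Mx1-Cre 2 fell and 2 rose, where 31.9% changed, so that these counts are near those shares. Hhex, a homeobox gene of early progenitors, fell by 1.60 in P95H (SE 0.244, adjusted p = 6.56e-05) and fell by 1.67 in Mx1-Cre (SE 0.244, adjusted p = 5.07e-05). Mllt3, a reader of acylated histones that maintains stem cells, fell by 0.33 in P95H (SE 0.081, adjusted p = 0.004) and fell by 0.53 in Mx1-Cre (SE 0.081, adjusted p = 5.5e-05). In Mx1-Cre, Nfix rose by 0.29 (SE 0.0839) and Etv6, an ETS repressor, by 0.21 (SE 0.071). Of 4 tested surface proteins of progenitors, 3 fell and 1 rose in P95H, and 1 fell and 1 rose in Mx1-Cre, beside the same shares. Kit, the stem cell factor receptor by which the cells were sorted, fell by 0.77 in P95H (SE 0.155, adjusted p = 0.000962) and fell by 0.80 in Mx1-Cre (SE 0.155, adjusted p = 0.00073). In P95H, the tetraspanin genes Cd9 and Cd63 fell by 0.67 (SE 0.179, adjusted p = 0.00693) and fell by 0.78 (SE 0.279, adjusted p = 0.0405). Cd48 rose by 1.46 in P95H (SE 0.221, adjusted p = 7.52e-05) and by 1.63 in Mx1-Cre (SE 0.221, adjusted p = 2.63e-05).

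The balance of Gata2 and Gata1 was compared within each library, since GATA1 replaces GATA2 as cells commit. Gata1 exceeded Gata2 by a median of 31.6-fold in P95H PHZ (13.8 to 35.9), 15.2-fold in P95H PBS (13.5 to 20.4), 27.5-fold in Mx1-Cre PHZ (21.3 to 29.5) and 14.8-fold in Mx1-Cre PBS (12.3 to 18.4). The Mx1-Cre groups did not overlap, and P95H PHZ replicate 2, at 13.8, lay inside the P95H PBS range. On the log2 scale Gata2 relative to Gata1 differed by -0.63 in P95H (exact two-sided permutation test, p = 0.0476, adjusted p = 0.19) and by -0.74 in Mx1-Cre (exact permutation, p = 0.00794, adjusted p = 0.0635). The smallest p that 5 against 5 libraries allow was 0.00794, and adjustment over 8 ratio comparisons put a lone result at that p above the threshold. Without P95H PHZ replicate 2 the P95H difference was -0.85, and the adjusted p was 0.0317 in each genotype (exact permutation). That library was the only P95H PHZ library inside the PBS range, so leaving it out made the P95H groups separate. The Mx1-Cre difference itself stayed at -0.74, and only its adjustment changed. These 2 adjusted p-values therefore add no support. Spi1 relative to Gata1 differed by -0.51 in P95H (exact permutation, adjusted p = 0.36) and -0.18 in Mx1-Cre (exact permutation, adjusted p = 0.599).

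**Figure D5:**
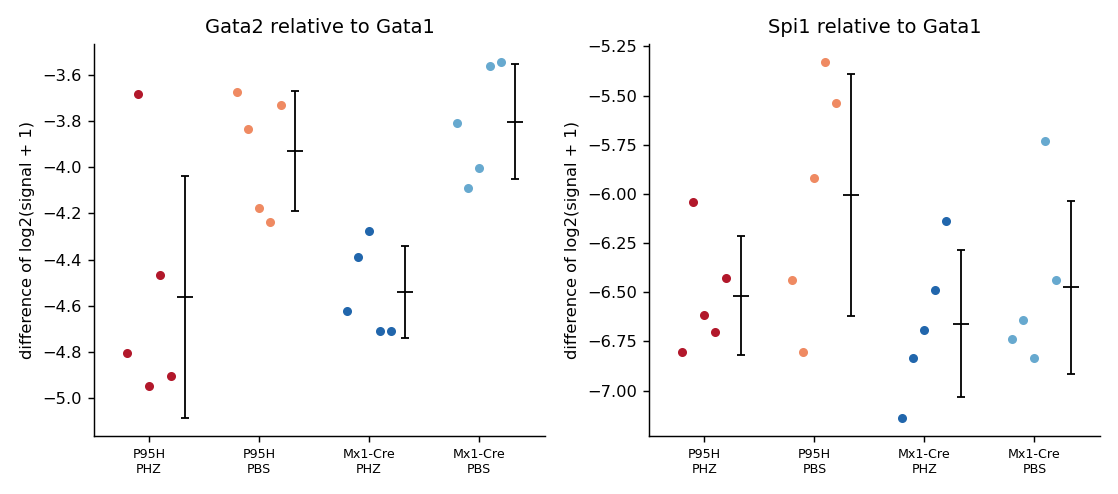
Difference of log2(value + 1) between Gata2 and Gata1 (left) and between Spi1 and Gata1 (right) in each library, with the group mean ± SD (n = 5). Gata2 relative to Gata1 is lower in all 5 Mx1-Cre PHZ libraries than in any Mx1-Cre PBS library, and P95H PHZ replicate 2 lies with the PBS libraries.

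P95H was then compared with Mx1-Cre, the comparison that asks what the mutation changes. Among the 10 genes, Cbfa2t3 after PHZ and Myb averaged over both treatments passed, and no other did. Under PBS 0 of 8 passed in limma, where 1.48% of all genes tested passed, and 1 of 8, Myb, had an unadjusted p under 0.05, as did 14.1% of all genes tested. Its log2 fold change was -0.20 (SE 0.0975, adjusted p = 0.35 in limma). No gene of the 8 lay without overlap between the PBS groups, as 3.67% of all genes tested did. After PHZ 1 of 8 passed: Cbfa2t3 was lower in P95H (-0.34, SE 0.0922, adjusted p = 0.0343), where 4.37% of all genes tested were lower and 5.47% changed either way. Its 16.0 to 21.6 in P95H PHZ libraries lay below the 22.0 to 29.0 in Mx1-Cre PHZ libraries, as 5.38% of all genes tested did. Erg lay the other way without overlap, with 0.567 to 0.818 in P95H PHZ and 0.268 to 0.542 in Mx1-Cre PHZ, as 1.57% of all genes tested did, but did not pass (0.24, SE 0.123, adjusted p = 0.256).

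The call of Cbfa2t3 after PHZ was lost with TMM scaling (adjusted p = 0.0915), quantile normalization (0.134), the factor divided out (0.114), no filter (0.0501), or the compared groups fitted alone (0.0682), and without Mx1-Cre PHZ replicate 1 (0.0986), 3 (0.0632) or 5 (0.0545) or P95H PHZ replicate 3 (0.0948) or 5 (0.0873). Averaged over both treatments 1 of 8 passed: Myb was lower in P95H (-0.24, SE 0.0689, adjusted p = 0.0304), where 7.88% of all genes tested were lower and 10.5% changed either way. Myb averaged 102 ± 13.5 in P95H PHZ and 123 ± 11.8 in Mx1-Cre PHZ, and 170.3 ± 12.2 in P95H PBS and 198 ± 30.6 in Mx1-Cre PBS (SD, n = 5 each). The groups overlapped under each treatment. The averaged call of Myb was lost with TMM scaling (0.0958), quantile normalization (0.0866), the factor divided out (0.0639) and the marker covariate (0.0583), and without Mx1-Cre PBS replicate 1 (0.0579), Mx1-Cre PHZ replicate 1 (0.0513) or 3 (0.0611), P95H PBS replicate 1 (0.0525) or P95H PHZ replicate 3 (0.0523). Erg, at 0.20 averaged (SE 0.0872, adjusted p = 0.138), passed without P95H PBS replicate 1 (0.0383).

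The interaction of PHZ and P95H asks whether the PHZ response differed between genotypes. In limma 0 of the 8 genes passed, and 0% of all 10890 genes tested did, with 577 (5.3%) at an unadjusted p under 0.05. Of the 8, 1 had an unadjusted p under 0.05: for Cbfa2t3 the PHZ log2 fold change in P95H minus that in Mx1-Cre was -0.32 (SE 0.13, adjusted p = 0.798). For Gata2 the difference of responses was 0.03 (95% interval -0.42 to 0.48) and for Myb -0.07 (-0.35 to 0.22).

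The genes that passed a test were also set beside the rest of the table by profile. Each log2 profile over the 20 libraries was centred on its own mean, and the likeness was the root mean square difference between profiles, over genes with a mean of at least 5. Nearest to Gata2 were Myb (0.218), Plscr1 (0.226) and Shank3 (0.234), where the median gene was at 0.501. Among the nearest to Myb were Ptprs (0.123) and Slc7a7 (0.14), beside a median of 0.418. Nearest to Cbfa2t3 were Ppp1r35 (0.129), Pex6 (0.13) and Faap100 (0.139), beside 0.297. Nearest to Erg were Acad11 (0.15), Pctp (0.162) and Ggcx (0.177), beside 0.328. These likenesses describe the 20 libraries, which share the PHZ difference. For instance Plscr1, a phospholipid scramblase, averaged 37.1 in P95H PHZ, 72.2 in P95H PBS, 38.6 in Mx1-Cre PHZ and 76.0 in Mx1-Cre PBS, in the order of the Gata2 means.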

How the data were processed

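Sorted CFU-E of 20 mice were sequenced as 150 bp paired ends, per the labels' protocols. The submitters' processing notes name TopHat2 2.0.8b, TopHat, RSEM 1.2.4 and Bowtie, without saying which step each served, and human (GRCh37, hg19) and mouse (GRCm38, mm10) builds. The authors deposited a single table of normalised signal: each library held whole multiples of 0.01 (within 0.01 of a step, 100% of values) times a factor of 0.940 to 1.10, the form of rounded TPM. The sources used here do not say how the factors were made.

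Symbols and positions came from GENCODE vM21 (GRCm38). Values were taken as log2(value + 1), which understates changes of low genes. limma 3.58.1 in R 4.3.3 fitted group means over all 20 libraries with trended, robust moderation, and Benjamini-Hochberg adjustment ran over the 10890 genes that passed the filter, at 0.05. All 20 libraries list 17489 entries at 0. There were 6 contrasts: the PHZ difference within each genotype, the P95H difference within each treatment and averaged over both, and the interaction. A change is said to have passed, risen or fallen by that adjusted p. Ratios used exact two-sided permutation tests over every split of 5 against 5 libraries. Tested on simulated data (10890 genes, 200 of them changed), the fit recovered 84% of log2 changes of 0.5 in the PHZ contrast of P95H, 82% in that of Mx1-Cre and 58% in the interaction. The real PHZ contrasts called far more genes, 3294 in P95H and 3474 in Mx1-Cre. Recovery was not split by level, so it does not describe genes as low as Erg or Spi1. Alternatives were TMM factors (trimmed mean of log ratios), quantile normalization, the authors' factor divided out, pseudocounts of 0.1 and 5, no filter, a filter at 5, the compared groups alone, plain moderation, the replicate number as a block, the granulocyte and monocyte marker level as a covariate, and leaving out libraries.

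The genes followed, the 18 gene lists and the alternatives were chosen with earlier results of these data known. Genes named are all 10 members, up to 4 called genes per list with the smallest p in a contrast, the most abundant marker, the 3 nearest profiles, Gata1 and Srsf2. Some genes that this rule names are not reported here. Splicing was not analysed here.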

Additional observations from a re-analysis of the deposited data

Results flagged for a closer look

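In 5 of 47 group profiles of the 10 genes and their ratios, a library stood apart from the other 4 of its group by Dixon's criterion (gap over range above 0.71), which chance gives in about 1 of 20 where values are above 0. In 2 of the 5, both of Mycn, the other 4 libraries were listed at 0, so that any single value above 0 stands apart and that rate does not apply. The other 3 were among 45 profiles. Gata2 was 12.4 in P95H PHZ replicate 2, where the others ran from 5.89 to 7.65. The same library held the highest Mycn of its group, 0.132, with the others listed at 0. Mycn was 0.0943 in P95H PBS replicate 4, with the others listed at 0. Spi1 was 3.30 in Mx1-Cre PBS replicate 4, where the others ran from 1.14 to 1.61. Cbfa2t3 was 29.0 in Mx1-Cre PHZ replicate 1, where the others ran from 22.0 to 23.7. The cause of none of these was tested.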

How the results depend on the processing

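Of 1508 recomputed test values of the 8 genes, 1461 kept their direction and side of the threshold, 39 lost a call, 8 gained one and 0 called values changed sign; among 1183 uncalled in both fits, 41 changed sign. Gata2 and Myb after PHZ, and Cbfa2t3 after PHZ in P95H, were called under every alternative run. For P95H against Mx1-Cre after PHZ, the number of the 8 genes called was 0 (1 in the report) under TMM factors, quantile normalization, the factor divided out, no filter and the groups fitted alone, and 0 to 1 with a library left out. Averaged, it was 0 (against 1) under TMM factors, quantile normalization, the factor divided out and the marker covariate, and 0 to 1 with a library left out. Over all genes, calls for P95H against Mx1-Cre after PHZ numbered 343 with TMM factors, 292 with quantile normalization, 277 with the factor divided out and 345 with the groups alone, and 319 to 696 with a library left out, beside 596. Under PBS they numbered 78 with the groups alone, 98 without P95H PBS replicates 4 and 5 and 90 to 180 with a library left out, beside 161. PHZ in P95H called 971 with the marker covariate and 2100 without those replicates, beside 1371 higher and 1923 lower, and the interaction called 1 with no filter. The causes were not tested.

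The factor divided out moved the share of higher genes among those called from 41.6% to 69.7% for PHZ in P95H (2575 higher and 1117 lower, against 1371 and 1923) and from 53.4% to 64.7% in Mx1-Cre (2232 and 1219, against 1856 and 1618). For P95H against Mx1-Cre it was 24.2% under PBS (39.4% with TMM factors or quantile normalization), 20.1% after PHZ (44.2% to 47.7% under the 3 scalings) and 25.3% averaged (42.5% to 49.2%). Gata2 relative to Gata1, with a library left out, ran from -0.85 to -0.53 in P95H and from -0.81 to -0.67 in Mx1-Cre.

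Titles share replicate numbers, but the deviations of same-numbered libraries correlated between -0.306 and 0.27, and 4 of 20 libraries matched their own number best, so the numbers were not taken as pairs. With the replicate block 5 of the 8 genes passed after PHZ in P95H (Spi1 added, adjusted p = 0.0207) and 4 in Mx1-Cre. The ratios were not refitted with the block, and the compared groups alone cannot give the averaged contrast or the interaction. Read depth per gene is unknown, so precision at the levels of Erg, Spi1, Meis1 and Mycn could not be judged.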
